A study of Mus musculus with 27 samples.

Results

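Cancer-associated fibroblast (CAF) segments of CMTM6-knockdown liver metastases were compared with each other, region by region. The members were all 13 regions of interest (ROIs) of the knockdown group, numbered 16 to 28, out of 27 ROIs in the series, and the 14 control ROIs were not analysed here. C57BL/6 mice aged 2 months had received MC38 cells, a mouse colorectal cancer line, through the portal vein, after the cells were transduced with lentivirus carrying a CMTM6 shRNA, and livers were taken on day 11. In each ROI the desmin-positive area was the segment used here. Pan-cytokeratin marked the tumour cells, which the paper also profiled, and SYTO13 marked nuclei. RNA of the segment was read with the mouse whole transcriptome panel of the GeoMx Digital Spatial Profiler, which counts released probe tags by sequencing. The knockdown was in the injected cells, so the fibroblasts of every ROI were host cells with no shRNA of their own. The ROIs came from 3 mice, and since the labels do not tie an ROI to a mouse, some ROIs share an animal. No test over ROIs was therefore run, and spreads and correlations below are descriptions of these sections.

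CAFs of the liver arise largely from hepatic stellate cells, vitamin A-storing pericytes of the sinusoid that become contractile and collagen-producing when activated, and from portal fibroblasts. Myofibroblastic CAFs carry smooth muscle actin and fibrillar collagen, whereas inflammatory CAFs secrete chemokines, complement and acute phase proteins, and both states can sit side by side in 1 tumour. A desmin-positive area drawn in tissue also takes in vessels, macrophages, lymphocytes and bordering hepatocytes, so a bulk readout of it cannot tell fewer cells of a type from less RNA per cell.

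The sheet held 18855 targets. Values were whole reads multiplied by 1 factor per ROI. In 12 ROIs the recovered reads ranged from 406002 in ROI 25 to 2776820 in ROI 16. ROI 26 had 76346 reads, 1 read there was worth 14.1 in the deposited value, and it was left out of every spread and correlation. Each value was taken as log2(value + 1) minus the ROI's own median over all targets, called the level below. A level of 0 is thus the median target of that ROI, and levels of different genes also carry the efficiency of their probes. Background was read from 1081 targets of olfactory, vomeronasal, taste and other receptor and tissue-restricted families, and 11147 targets had a mean level above the 95th percentile of these families, which lay at a deposited value of 12.0 to 14.4 depending on the ROI. The distance between the median target above background and the median background target, called the gap, ran from 1.68 in ROI 25 to 2.30 in ROI 21 on the log2 scale. Depth and gap were nearly unrelated over the 12 ROIs (Pearson r = 0.039).

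Markers of the labelled cell type were present in every ROI. Col1a1, the main chain of type I collagen, had deposited values from 3624 in ROI 18 to 11457 in ROI 28, with a median of 6104, which put it far above background in every ROI. Acta2, smooth muscle actin, ranged from 93.3 in ROI 18 to 934 in ROI 22, with a median of 473. Des itself was used to draw the areas and ranged only from 30.2 in ROI 18 to 73.8 in ROI 28, with a median of 43.8, with an SD of 0.35 and a ratio of 1.37 to targets of like level. Hepatocyte and antigen-presenting cell markers were also present, with Alb, serum albumin, from 11.1 in ROI 25 to 352 in ROI 18, with a median of 112, and Cd74, the MHC class II invariant chain, from 608 in ROI 20 to 1469 in ROI 23, with a median of 1029. Of epithelial and tumour markers, Epcam, Krt18, Krt19, Krt7 and Krt20 were at or below the background threshold on average, while 7 of the 20 measured genes of that list were above it. They were Spp1, osteopontin, which macrophages also make (median 1477), Sox9 (54.5) and, nearer to background, Krt8, Spint1, Spint2, Cd24a and Muc1, with medians of 12.7 to 19.2.

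Most genes differed little between regions. The median SD of a target above background was 0.28 on the log2 scale, where the counting error of the reads alone would give a median of 0.22, and 2470 targets had an SD below their own counting error. To ask which genes varied beyond what their level implies, each SD was divided by the running median SD of the targets nearest in mean level. Of the 11147 targets above background, 1056 (9.47%) had a ratio of at least 1.5 and are called variable below. Every count of variable genes on a list below is to be read against this 9.47%. The lists were chosen with earlier results of these data known. A ratio of at least 2 was found for 280 targets and of at least 3 for 53. The limit cuts a continuous range: Tigit, an inhibitory receptor of lymphocytes, lay just inside it at 1.5002 and Robo4, an endothelial guidance receptor, just outside it at 1.4994.

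**Figure D1:**
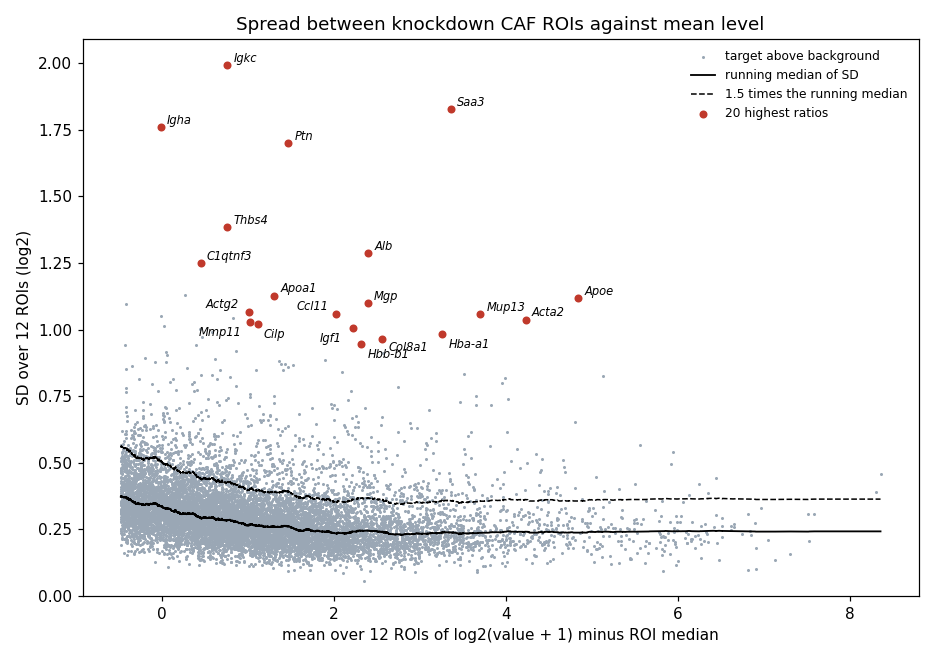
SD over 12 ROIs (y axis, log2) of each target above background against its mean level (x axis, log2 of value + 1 minus the ROI median), 1 grey point per target, with the running median (solid) and 1.5 times it (dashed). The 20 targets with the highest ratios are in red, and Saa3, at an SD of 1.83, stands far from other targets of its level.

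The 20 genes with the highest ratios came from several cell types and secretory programs. Saa3, an acute phase apolipoprotein made by fibroblasts and macrophages, led with a ratio of 7.66. Next were Igkc, the immunoglobulin kappa constant region (7.01), Ptn, the secreted growth factor pleiotrophin (6.50), Alb (5.26) and Igha, the IgA heavy chain (5.21). The median of Igha, 10.9, lay below the background threshold of each of the 12 ROIs. Its mean passed that threshold through its high regions, which also make its SD, so its rank is not independent of the filter. Matrix and fibroblast products held most other places: Thbs4, Mgp, C1qtnf3, Col8a1, Cilp and Mmp11, together with Igf1 and the eosinophil chemokine Ccl11. The smooth muscle actins Acta2 and Actg2, the lipoprotein genes Apoe and Apoa1, the major urinary protein Mup13 and the globins Hba-a1 and Hbb-b1 completed the 20. Probes of the globins, of Mup13 and of the immunoglobulin genes may read near-identical copies, which the sheet does not separate.

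At the other end, Cdc5l, a splicing factor, ranged from 90.2 in ROI 21 to 116 in ROI 25, with a median of 96.1. That is a ratio of 1.28 between its extreme ROIs and an SD of 0.054, below the counting error of 0.14. Aoc2, Antkmt and Traf3ip2 were also among the 5 steadiest targets, each with a ratio of highest to lowest ROI of between 1.34 and 1.46.

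**Figure D2:**
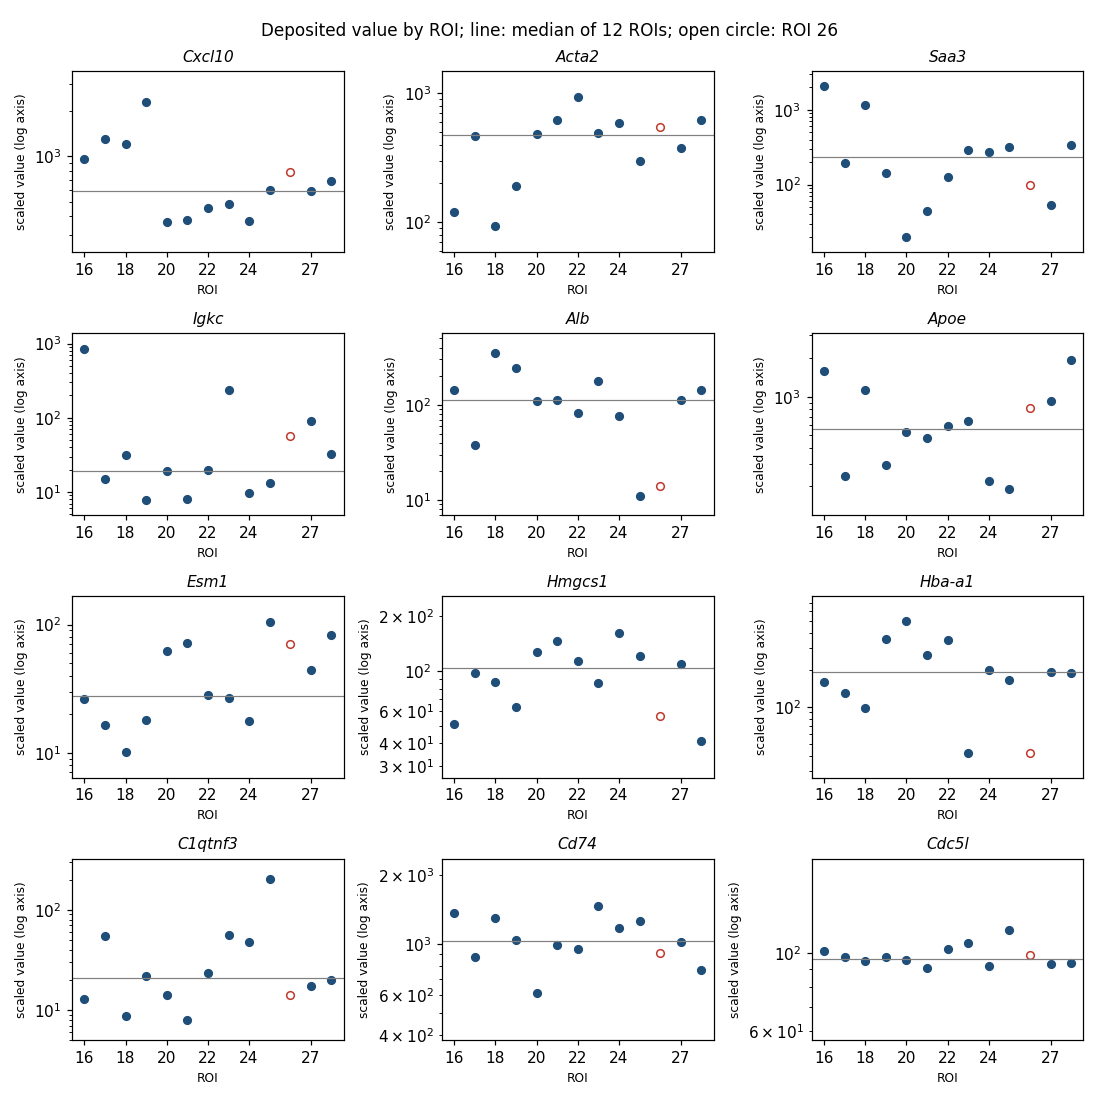
Deposited value (y axis, log scale) of 12 genes in each ROI (x axis), with the median of 12 ROIs as a line and ROI 26 as an open red circle. Cxcl10 is high in ROIs 16 to 19, Acta2 is low in ROIs 16, 18 and 19, Igkc is high in ROIs 16 and 23, and Cdc5l is flat.

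Groups of genes that vary together were sought among the 300 targets with the highest ratios, by average linkage on 1 minus Pearson's r over the 12 ROIs with a limit of 0.5. They gave 7 groups of 10 or more targets, which held 205 of the 300. By leading and other members, the largest was an interferon and chemokine group of 71 targets. Next came a group of 29 low in ROI 25 and a mixed macrophage, lipid and stromal group of 28. An endothelial, basement membrane and matrix group held 25 and a contractile and collagen group 21. The last were a hepatocyte group of 19 and a sterol synthesis group of 12. The first principal component of the same 300 targets held 23.8% of their variance, the next 19.7% and the third 16.7%. The first ran from Saa3, Igkc, Alb and Fgb at its high end to Acta2, Cilp, Esm1 and Tagln at its low end, and its scores correlated with log2 reads at r = 0.75. Depth thus moved with this axis, and its part in it was not tested.

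**Figure D3:**
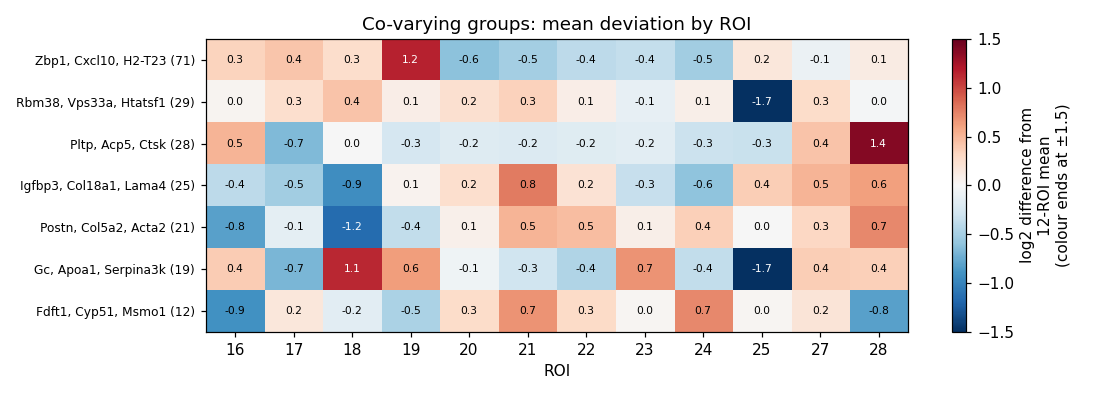
Mean deviation from the 12-ROI mean (colour and printed number, log2) of the 7 co-varying groups (rows, named by 3 leading genes, with the number of targets) in each ROI (columns). ROI 19 is highest for the Cxcl10 group at 1.15, ROI 28 for the Pltp group at 1.38, and ROI 25 is low for the Rbm38 and Gc groups.

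The interferon and chemokine genes formed the largest group. Interferons act through receptor-linked kinases and transcription factors that bind the interferon-stimulated response element and switch on antiviral enzymes, GTPases and chemokines. On the interferon response list, 38 of 39 measured genes were above background and 33 of them were variable. Their mean pairwise r over 12 ROIs was 0.74, below the ribosomal protein list at 0.83 and a sterol synthesis list at 0.77, and was 0.62 without ROI 19.

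The promoters of these genes are shown because the members varied together. The stretches come from RefSeq on GRCm38.p6, end before the start site, and have each match to the core of the interferon-stimulated response element, 2 copies of GAAA with 2 bases between them on either strand, in capitals, overlapping matches included. The motif was chosen after the values were seen.
Cxcl10: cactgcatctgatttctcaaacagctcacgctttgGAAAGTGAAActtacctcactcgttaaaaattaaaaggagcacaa
Rsad2: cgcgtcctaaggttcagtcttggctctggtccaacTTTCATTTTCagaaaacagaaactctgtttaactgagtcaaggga
Ifit3: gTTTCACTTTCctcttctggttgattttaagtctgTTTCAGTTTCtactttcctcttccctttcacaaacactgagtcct
Isg15: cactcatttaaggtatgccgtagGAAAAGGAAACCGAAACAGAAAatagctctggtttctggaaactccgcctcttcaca
The Cxcl10 stretch is chr5:92349058-92349137 on the minus strand, the Rsad2 stretch chr12:26456528-26456607 on the minus strand, the Ifit3 stretch chr19:34583372-34583451 on the plus strand and the Isg15 stretch chr4:156200840-156200919 on the minus strand. Their matches nearest to the start site end 203, 110, 112 and 56 bases before it, in that order. Of the 31 list members with a promoter in the table, 16 (51.6%) held the motif within 250 bases before the start, against 3.46% of all 27025 genes with a promoter there. A match of letters is a description and shows no binding.

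Cxcl10, a chemokine that draws activated T cells, had deposited values of 961 in ROI 16, 1296 in ROI 17, 1205 in ROI 18, 2311 in ROI 19, 369 in ROI 20, 377 in ROI 21, 457 in ROI 22, 480.3 in ROI 23, 369.8 in ROI 24, 596 in ROI 25, 589.8 in ROI 27 and 687 in ROI 28. ROIs 16 to 19 were the 4 highest, ROI 19 stood above the other 3, and ROIs 20 to 24 were the 5 lowest. Rsad2, the antiviral enzyme viperin, ranged from 27.3 in ROI 24 to 187 in ROI 19, with a median of 46.6, and correlated with Cxcl10 at r = 0.91 (rho = 0.81). Isg15, a ubiquitin-like modifier, ranged from 280.0 in ROI 24 to 1429 in ROI 19, with a median of 499.7. Irf7, the factor that amplifies type I interferon, ranged from 122 in ROI 24 to 824 in ROI 19, with a median of 313. Cxcl9, the chemokine most tied to interferon gamma, reached 609 in ROI 19 and 503 in ROI 25, so ROI 25 was high for Cxcl9 while it held 33.4 for Rsad2, near the lower end.

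The leading genes of the group, by mean correlation with its other members, were Zbp1, a sensor of Z-form nucleic acid, Cxcl10, H2-T23, Ly6c1 and the GTPase Gbp5. Ly6c1, a surface antigen of monocytes, endothelium and inflammatory CAFs, ranged from 545 in ROI 24 to 2359.9 in ROI 19, with a median of 826. The chemokine Ccl11 clustered with them and ranged from 30.2 in ROI 18 to 389.8 in ROI 19, with a median of 66.2. Its r with Cxcl10 was 0.62, with 0.31 without ROI 19 and 0.86 without ROI 18, so that pairing depended on single regions. The level of the whole interferon list was 4.18 in ROI 19, 3.68 in ROI 17 and 3.65 in ROI 18, against 2.69 in ROI 20. Without ROI 19 the SD of the list level was 0.35 in place of 0.46, and 24 of the 71 targets still clustered with Cxcl10. The list level had r = 0.39 with log2 reads and -0.37 with the gap, and its SD was 0.42 after a linear fit on either was taken off.

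Contractile and collagen genes formed another program, and the level of the contractile list had r = -0.63 with the interferon list (-0.69 to -0.57 with each ROI left out, and -0.40 with ROI 26 kept). Stellate cells that turn into myofibroblasts assemble actin stress fibres through serum response factor, which binds the CArG box, and lay down collagen that lysyl oxidases cross-link. On the contractile list 16 of 24 measured genes were above background and 8 were variable, namely Acta2, Actg2, Tagln, Myl9, Myh11, Tpm2, Tpm1 and Smtn. The mean pairwise r of the 16 was 0.55.

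Acta2 had deposited values of 119.7 in ROI 16, 465 in ROI 17, 93.3 in ROI 18, 190.2 in ROI 19, 482 in ROI 20, 619 in ROI 21, 934 in ROI 22, 492 in ROI 23, 586 in ROI 24, 300.3 in ROI 25, 378 in ROI 27 and 618 in ROI 28. ROIs 18, 16 and 19 were the 3 lowest, each below 200, and every other ROI stood at or above 300.3. Tagln, the actin-binding protein transgelin, ranged from 74.3 in ROI 18 to 402 in ROI 22, with a median of 249 and correlated with Acta2 at r = 0.96. Actg2, the enteric smooth muscle actin, ranged from 9.11 in ROI 18 to 123 in ROI 28, with a median of 37.8, and Myl9, a regulatory myosin light chain, from 21.9 in ROI 19 to 75.9 in ROI 22, with a median of 45.0. Des correlated with Acta2 at r = 0.82 and with Col1a1 at r = 0.86, although Des varied far less.

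Among contractile genes with a promoter in the table, 3 of 13 held a CArG box within 250 bases before the start, against 1.62% of all genes. Myl9 is the one of them that was variable, and its stretch, chr2:156775268-156775347 on the plus strand on GRCm38.p6 from RefSeq, is shown with the box in capitals.
Myl9: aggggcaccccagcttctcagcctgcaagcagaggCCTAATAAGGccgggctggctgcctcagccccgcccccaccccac
Its box ends 151 bases before the start site. No match in this window was found for the other 10 contractile promoters, Acta2 among them, which says only that these letters are not within it.

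The co-varying group that held Acta2 also held Postn, Col5a2, Col5a1, Col12a1, Col8a1, Fn1, Lox, Loxl2, Cthrc1 and Adam12. Postn, the matricellular protein periostin, ranged from 64.5 in ROI 18 to 368 in ROI 28, with a median of 191, and Col5a2, a chain of type V collagen, from 252 in ROI 18 to 958 in ROI 28, with a median of 508. Lox, lysyl oxidase, ranged from 98.7 in ROI 16 to 246 in ROI 24, with a median of 198, a narrower span. The group's mean deviation was -1.15 in ROI 18 and -0.82 in ROI 16, and its highest were 0.72 in ROI 28 and 0.51 in ROI 21. No group of 10 or more targets held Acta2 without ROI 16 or once a linear fit on log2 reads was taken off, and 5 of the 21 remained with it without ROI 18. The deepest ROIs, 16, 18 and 17, were among the lower ones for this group (r with log2 reads = -0.61), and the part of depth was not tested. On another measure, the SD of the contractile list level was 0.37, and 0.35 after the fit on reads. That level had r = 0.54 with the gap. After a linear fit on the gap was taken off, its SD was 0.31, and the mean pairwise r of the list was 0.43 in place of 0.55.

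Of 35 genes above background on the fibrillar collagen and matrix list, 22 were variable. Among abundant products, Col1a1 had a ratio of 1.88, Col3a1 of 1.61, Col1a2 of 1.37, Sparc of 1.08 and Dcn, the collagen-binding proteoglycan decorin, of 0.85. The 22 took in collagen chains such as Col5a1 at 2.04 and Col5a3 at 2.90, the glycoprotein Fn1 at 2.23, and secreted regulators and proteases, which held the highest ratios. Thbs4, a thrombospondin of injured muscle and tendon, ranged from 4.14 in ROI 28 to 158 in ROI 22, with a median of 37.8, with ROI 19 next at 87.7. Mmp11, stromelysin 3, a protease typical of tumour stroma, ranged from 13.7 in ROI 21 to 133 in ROI 25, with a median of 28.1, with ROI 17 next at 119. Thbs4 thus peaked in the same ROI as Acta2 and Mmp11 in another.

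A small set of fibroblast products had its own order of regions. C1qtnf3, a secreted C1q and TNF-related protein, had deposited values of 12.8 in ROI 16, 55.2 in ROI 17, 8.74 in ROI 18, 21.9 in ROI 19, 14.1 in ROI 20, 8.00 in ROI 21, 23.5 in ROI 22, 56.4 in ROI 23, 47.6 in ROI 24, 202 in ROI 25, 17.3 in ROI 27 and 19.9 in ROI 28. ROI 25 stood above all others, and ROIs 17, 23 and 24 followed. Mmp11 correlated with it at r = 0.90 (rho = 0.82, 0.88 to 0.93 with each ROI left out). Cilp, a cartilage intermediate layer protein found in fibroblasts, ranged from 12.4 in ROI 28 to 142 in ROI 25, with a median of 43.5 and had r = 0.65 with C1qtnf3, or 0.47 without ROI 25. Ptn had a larger SD, 1.70 against 1.25 for C1qtnf3. It ranged from 5.71 in ROI 21 to 302 in ROI 28, with a median of 56.8 and ROI 24 next at 190.2. Mgp, matrix Gla protein, an inhibitor of calcification, was high in ROI 16 at 699.9, against 172 in the next ROI, and Igf1, insulin-like growth factor 1, ranged from 20.2 in ROI 27 to 218 in ROI 23, with a median of 101.

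Endothelial genes varied together with basement membrane genes. The endothelial list had 14 variable genes of 20 above background, and its level correlated with that of the basement membrane list at r = 0.86 (rho = 0.82). Leaving out each ROI in turn gave 0.81 to 0.90, and leaving out the 2 ROIs farthest from the endothelial median gave 0.75. The lists share no gene. The pairing was not particular to endothelium. The basement membrane level had r = 0.90 with the fibrillar collagen and matrix list (rho = 0.90) and 0.80 with the contractile list. The co-varying group led by Igfbp3, Col18a1, Lama4, Sorbs2 and Mcam held Cdh5, Emcn, Esm1, Sox18, Nos3 and Dll4 as well. It also held matrix and stromal genes such as Cd248, Col5a3, Col11a1, Mfap4 and Timp3. Of its 25 targets, 4 were on the endothelial list, 3 on the fibrillar collagen and matrix list and 3 on the basement membrane list.

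Cdh5, VE-cadherin, the junction protein of endothelium, ranged from 83.7 in ROI 24 to 278 in ROI 25, with a median of 199. ROIs 18 and 24 were the 2 lowest for it, and ROIs 20, 21 and 25 stood within 263 to 278. Esm1, a tip cell proteoglycan induced by VEGF, ranged from 10.2 in ROI 18 to 105 in ROI 25, with a median of 27.5, and its value in ROI 18 lay below the background threshold there, 12.5. Col18a1, the source of endostatin, ranged from 37.5 in ROI 18 to 177 in ROI 28, with a median of 101, and Col4a2, a network collagen of the basement membrane, from 368 in ROI 18 to 997 in ROI 28, with a median of 674. Thbs1, an inhibitor of angiogenesis and activator of latent TGF-beta, ranged from 76.5 in ROI 18 to 530.0 in ROI 21, with a median of 241 and had r = 0.70 with Esm1. Aqp1, a water channel of endothelium and bile duct, departed from the rest with 472 in ROI 25 and 263 in ROI 17. Of liver sinusoidal markers, Stab1 was above background and Stab2, Lyve1, Clec4g and Oit3 were not.

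Rgs5, a pericyte marker, led the list of quiescent stellate cells with a ratio of 3.68 and ranged from 22.9 in ROI 24 to 158 in ROI 16, with a median of 73.4. The list as a whole did not move together, since the mean pairwise r of its 17 genes above background was 0.059. Lrat, the retinol-esterifying enzyme of quiescent stellate cells, was not above background.

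Lymphocyte and antigen presentation genes opposed the contractile list. T cells and natural killer cells recognise and kill targets with granzymes and perforin, and MHC class II molecules present peptides to CD4 T cells. The T and NK cell list had 6 variable genes of 15 above background, against 9.47% of all targets above background. The level of the list ranged from -0.19 in ROI 20 to 1.00 in ROI 16. Over the 12 ROIs it had r = -0.82 with the contractile list (rho = -0.88), -0.87 to -0.78 with each ROI left out, and -0.87 without the 2 ROIs farthest from the T and NK cell median. It was -0.45 with ROI 26 kept, and -0.69 to -0.67 when levels were centred on another quantity than the ROI median. The T and NK cell level also had r = -0.67 with the gap, and the relation stood at -0.73 after a linear fit of both on the gap. The ROIs differ in depth, some share an animal, and they may share slide processing. This pair was picked after 210 list pairs had been computed.

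Ccl5, a T cell and macrophage chemokine, ranged from 29.0 in ROI 20 to 183 in ROI 16, with a median of 75.3, with 164 in ROI 19. Gzmb, granzyme B, had 97.1 in ROI 19 and 31.4 in ROI 16, and its lowest values lay below the background threshold. Trbc1, a T cell receptor constant chain, ranged from 6.63 in ROI 28 to 38.2 in ROI 16, with a median of 17.7. Several defining markers were not above background: Cd4, Foxp3, Ncr1, Cd8b1 and Ifng.

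**Figure D4:**
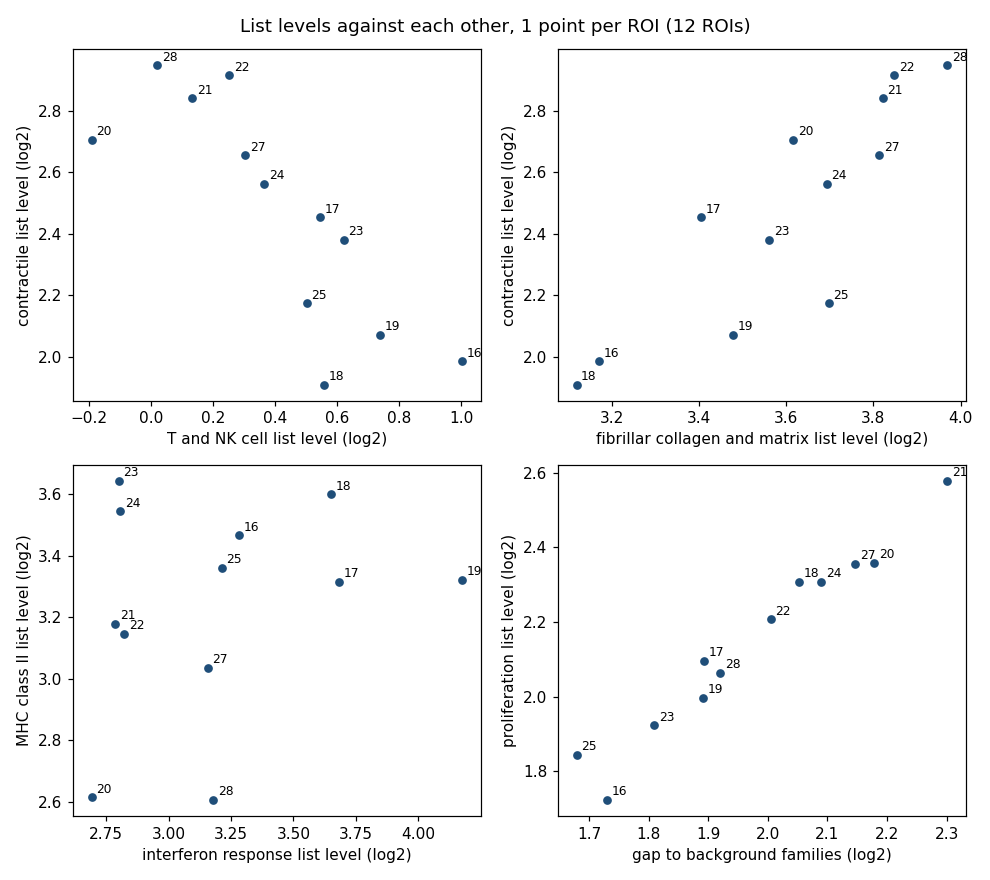
List levels (log2, mean of members above background relative to the ROI median) plotted against each other, 1 numbered point per ROI. The contractile level falls as the T and NK cell level rises and rises with the matrix level, MHC class II shows no clear order against the interferon list, and the proliferation level follows the gap to background.

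The MHC class II genes moved as a block. Their mean pairwise r was 0.71 over 7 genes above background, 5 of them variable, and the list level ranged from 2.61 in ROI 28 and 2.62 in ROI 20 to 3.64 in ROI 23. The other 10 ROIs lay between 3.04 and 3.64. H2-Aa, the alpha chain of I-A, had deposited values of 465 in ROI 16, 271 in ROI 17, 405 in ROI 18, 288 in ROI 19, 157 in ROI 20, 258 in ROI 21, 279 in ROI 22, 451 in ROI 23, 300.3 in ROI 24, 398 in ROI 25, 241 in ROI 27 and 214 in ROI 28. Cd74 followed it at r = 0.93, although its own ratio of 1.33 was under the limit.

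Class II promoters carry a conserved module whose Y box, ATTGG or its complement, is bound by NF-Y. All 4 members with a promoter in the table held it within 250 bases before the start, where 37.5% of all genes do, so this short motif says little by itself. Stretches of the class II chain genes H2-Eb1 and H2-Aa are shown, from RefSeq on GRCm38.p6, with the motif in capitals.
H2-Eb1: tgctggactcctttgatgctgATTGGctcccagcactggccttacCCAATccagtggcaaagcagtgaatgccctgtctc
H2-Aa: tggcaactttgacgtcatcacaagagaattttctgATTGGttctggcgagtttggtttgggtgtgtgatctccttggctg
The H2-Eb1 stretch is chr17:34305787-34305866 on the plus strand and the H2-Aa stretch chr17:34287827-34287906 on the minus strand, and their nearest matches end 30 and 43 bases before the start.

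The class II list followed the T and NK cell list at r = 0.79 (0.69 without ROI 20), and 0.54 without ROIs 20 and 28, the 2 farthest from its median. It did not follow the interferon list, with r = 0.24, and Cd74 against Cxcl10 had r = 0.093. ROIs 23 and 24 had class II levels of 3.64 and 3.54, among the 3 highest, at interferon levels of 2.80 and 2.81, near the lowest. Against the basement membrane list the class II level had r = -0.77.

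By share of variable genes, the inflammatory CAF list stood highest of the fibroblast lists. 15 of 19 genes above background were variable, yet their mean pairwise r was only 0.22, so they did not vary as 1 block. The list level had r = -0.69 with the gap. After a linear fit on the gap was taken off, its SD was 0.28 in place of 0.39 and the mean pairwise r was 0.12. Saa3 had deposited values of 2069.7 in ROI 16, 193 in ROI 17, 1156 in ROI 18, 142 in ROI 19, 19.9 in ROI 20, 44.6 in ROI 21, 127 in ROI 22, 292 in ROI 23, 276 in ROI 24, 323 in ROI 25, 52.8 in ROI 27 and 343 in ROI 28. ROI 16 and ROI 18 stood far above the others, and ROIs 20, 21 and 27 were the lowest. Hp, haptoglobin, correlated with Saa3 at r = 0.85, C3, the central complement component, at r = 0.79, and Lcn2, the siderophore-binding lipocalin, at r = 0.75 but rho = 0.43. Against Acta2 the r of Saa3 was -0.65, and -0.51 without ROI 16. An acute phase list of 10 genes, put together after the values were seen, had 8 variable genes of 9 above background and was highest in ROI 16 (2.50) and lowest in ROI 21 (0.53). Hepatocytes also make Hp, C3, Saa1 and Lbp, and the 2 ROIs highest for Saa3 had hepatocyte list levels of 0.88 and 1.52. The part of hepatocytes in these values was not tested.

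**Figure D5:**
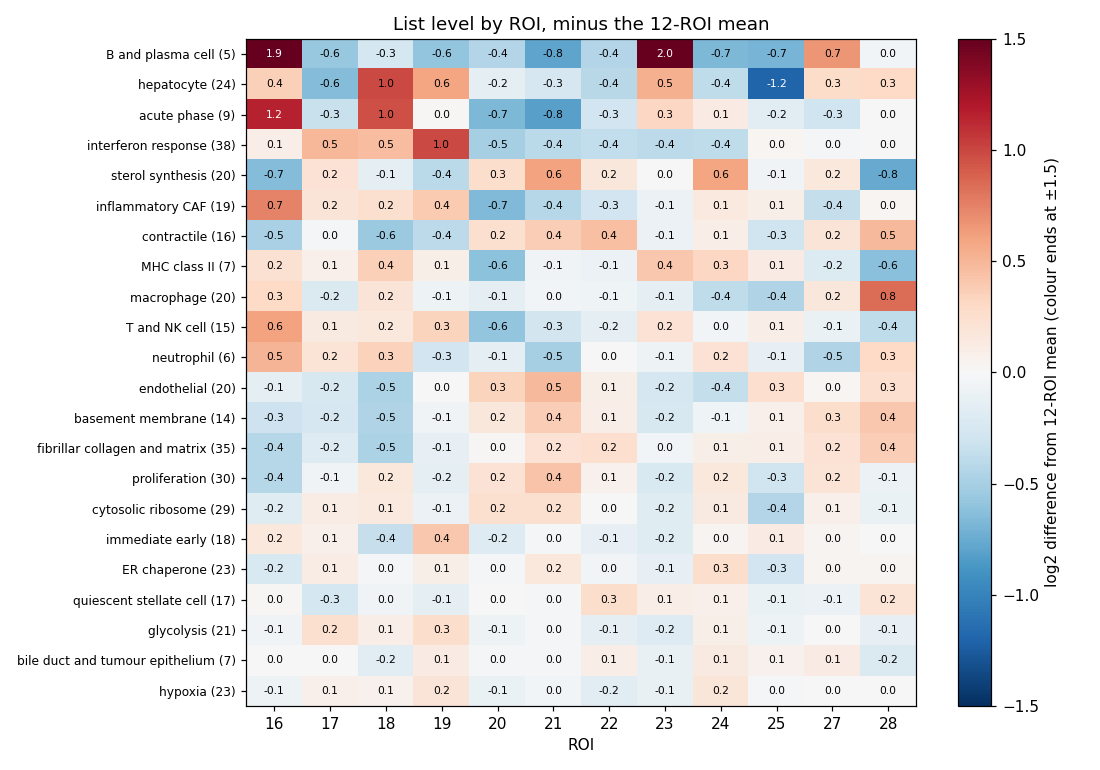
Level of each gene list with at least 2 genes above background in each ROI (columns) minus its mean over 12 ROIs, in log2 units as colour and printed number, with the number of genes above background in brackets and lists ordered by their SD. The B and plasma cell, hepatocyte and acute phase levels spread most over the regions among them, and the hypoxia, epithelial and glycolysis levels least. A level averages its list, so this is not the order of single genes. By median ratio of the members, ribosome (0.91) and ER chaperone (0.93) genes were the lowest.

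Immunoglobulin genes marked 2 regions. Igkc had deposited values of 859 in ROI 16, 14.9 in ROI 17, 31.7 in ROI 18, 7.83 in ROI 19, 19.1 in ROI 20, 8.00 in ROI 21, 19.6 in ROI 22, 237 in ROI 23, 9.69 in ROI 24, 13.3 in ROI 25, 91.3 in ROI 27 and 32.3 in ROI 28. ROI 16 and ROI 23 were far above the rest, and ROI 27 came next. Igha was highest in ROI 23 at 409.9, with 83.6 in ROI 27 and 57.8 in ROI 16, and 7 ROIs lay below the value of the background threshold. Jchain, which joins IgA and IgM multimers, had 65.3 in ROI 23 and 61.9 in ROI 16. Its median over 12 ROIs was 9.54, below the background threshold of each of them, so its mean passed that threshold through its high regions. Of 15 B and plasma cell genes measured, 5 were above background. The SD of their list level was 0.98, and 0.36 without the filter on low values. Kappa chain exceeded IgA in ROI 16 and the reverse held in ROI 23, so the 2 regions differed in their mixture of readouts. Each has its own probe, and a ratio between genes is not a ratio of molecules. Sdc1, syndecan-1, a plasma cell marker that epithelium also carries, had another order: it was highest in ROI 19 at 70.4 and had 26.9 in ROI 23, and Mzb1 was not above background. Nor were the B cell markers Ms4a1, Pax5 and Cd79a.

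Hepatocyte genes set another pattern. 21 of 24 hepatocyte genes above background were variable, with a mean pairwise r of 0.63. Alb had deposited values of 143 in ROI 16, 37.8 in ROI 17, 352 in ROI 18, 246 in ROI 19, 109 in ROI 20, 113 in ROI 21, 81.4 in ROI 22, 177 in ROI 23, 75.7 in ROI 24, 11.1 in ROI 25, 111 in ROI 27 and 143 in ROI 28. ROIs 18 and 19 were the highest, and ROI 25 stood below all others with a value worth 5 reads. Apoa1, the main apolipoprotein of HDL, correlated with Alb at r = 0.94, and Fgb, the fibrinogen beta chain, ranged from 2.22 in ROI 25 to 45.5 in ROI 18, with a median of 17.5. Mup13 ranged from 93.4 in ROI 25 to 666 in ROI 18, with a median of 261, a 7.12-fold span. The Alb value in ROI 25 lay below the background threshold there, 14.0. The list level in ROI 25 was -0.67, against 1.52 in ROI 18. Without ROI 25 the SD of the list level was 0.51 in place of 0.62. The same ROI was the shallowest of the 12, and the level had r = 0.52 with log2 reads. Metabolic enzymes of the hepatocyte were split, since Cyp2e1 and Ass1 were variable while Cps1, Pck1 and Cyp2c29 were not above background.

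Macrophage genes singled out ROI 28. Tumour-associated macrophages of the lipid-handling type carry Apoe, Gpnmb, Trem2 and the complement C1q chains. 13 of 20 macrophage genes above background were variable, and the list level was 2.94 in ROI 28, against 2.40 in ROI 16, the next, and 1.65 in ROI 25. Without ROI 28 the SD of the level was 0.23 in place of 0.34, and the mean pairwise r was 0.19 in place of 0.34.

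Apoe, the apolipoprotein of macrophage and hepatocyte lipid export, had deposited values of 1584 in ROI 16, 240.2 in ROI 17, 1124 in ROI 18, 293 in ROI 19, 529 in ROI 20, 476 in ROI 21, 593 in ROI 22, 642 in ROI 23, 218 in ROI 24, 191 in ROI 25, 932 in ROI 27 and 1945 in ROI 28. ROIs 28, 16 and 18 were above 1000 and ROIs 25, 24 and 17 below 250. Gpnmb, a glycoprotein of lysosome-rich macrophages, ranged from 9.69 in ROI 24 to 133 in ROI 28, with a median of 24.4, and had r = 0.85 with Apoe. C1qa correlated with Apoe at r = 0.87, and Alb at r = 0.61, or 0.46 without ROI 25. The genes that led the co-varying group were Pltp, the phospholipid transfer protein, Acp5 and Ctsk, the acid phosphatase and cathepsin of osteoclasts, Abca1, a cholesterol exporter, and Cyp1b1. Of the 28 targets in that group, 6 were on the macrophage list. Others, such as Fbln1, Thbs2, Fndc1 and Cdh11, are matrix or stromal genes, so the group was mixed. Pltp ranged from 45.3 in ROI 17 to 334 in ROI 28, with a median of 67.7, Ctsk from 27.0 in ROI 18 to 145 in ROI 28, with a median of 41.7 and Acp5 from 14.9 in ROI 21 to 135 in ROI 28, with a median of 24.5. Mmp9, gelatinase B, reached 160.0 in ROI 28 and no more than 43.3 in the rest of the 12 ROIs, while ROI 26, left out, had 70.4. The Kupffer cell markers Clec4f, Timd4, Vsig4, Marco and Cd5l were not above background in the mean of 12 ROIs.

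Sterol synthesis genes formed the group with the highest mean correlation of the 7. Cells make cholesterol from acetyl-CoA through HMG-CoA and squalene, and SREBP2 raises the enzymes together when membrane sterol is low. Among the 12 targets in the group, Hmgcs1, Idi1, Fdps, Fdft1, Sqle, Cyp51 and Msmo1 are enzymes of that route, Insig1 holds SREBP in the endoplasmic reticulum, Fads2 and Scd2 are fatty acid desaturases and Col14a1 is a collagen. The mean r within the group was 0.85. Hmgcs1, HMG-CoA synthase, had deposited values of 51.1 in ROI 16, 97.0 in ROI 17, 86.7 in ROI 18, 63.4 in ROI 19, 127 in ROI 20, 145 in ROI 21, 113 in ROI 22, 85.8 in ROI 23, 161 in ROI 24, 120.1 in ROI 25, 109.5 in ROI 27 and 41.4 in ROI 28. ROI 28 and ROI 16 were the lowest and ROIs 24 and 21 the highest, and Msmo1, a sterol demethylase, had the same 2 lowest ROIs with 61.3 and 82.5 and its highest, 255, in ROI 24.

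On a list of 21 sterol synthesis genes put together after the group was seen, 15 of 20 above background were variable and the mean pairwise r was 0.77. The list level correlated with the gap at r = 0.64, and its mean pairwise r was 0.70 after a fit on the gap was taken off. ROI 28 and ROI 16, lowest here, were the 2 highest for Apoe and the macrophage list. Without ROI 16 no group of 10 or more targets held Hmgcs1.

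The globins varied together. Hba-a1 and Hbb-b1, the haemoglobin chains, had r = 0.98, and Hba-a1 ranged from 42.3 in ROI 23 to 499 in ROI 20, with a median of 190.5. ROIs 19 to 22 were the 4 highest for Hba-a1, and ROI 23 alone of the 12 ROIs was below 50. The level of Hba-a1 had r = 0.59 with the endothelial list and -0.64 with the MHC class II list. The other 6 red cell genes measured were not above background.

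ROI 25 gave a group of its own. The 29 targets led by Rbm38, Vps33a, Htatsf1, Clstn1 and Yipf2 had no common function among the lists, and their mean deviation was -1.70 in ROI 25 and -0.13 to 0.42 in the others. Vps33a, a vesicle tethering protein, had 4.45 in ROI 25 and 25.6 to 37.7 elsewhere. At 406002 reads a value of 2.22 for Yipf2 is a single read. Of the 1056 variable targets, 289 were farthest from their mean through a low value in ROI 25, and 152 had over 50% of their squared deviations there. The next largest counts were 130 with a high value in ROI 19 and 81 with a high value in ROI 28. ROI 25 also had the smallest gap of the 12, 1.68 against 1.73 in ROI 16, the next, and the parts of depth and of gap were not tested.

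The levels of the hypoxia, epithelial and glycolysis lists had the smallest SDs, 0.11, 0.12 and 0.15. Their counts of variable genes are given against 9.47% over all targets above background. Of 23 hypoxia genes above background 4 were variable, their level ranged from 1.18 to 1.53, and their mean pairwise r was 0.10. Ddit4, an mTORC1 inhibitor induced by stress, ranged from 46.4 in ROI 28 to 205 in ROI 24, with a median of 108. Of 21 glycolysis genes 3 were variable, namely Hk3, a hexokinase of myeloid cells, and the lactate transporters Slc16a3 and Slc16a1, and Gapdh, a core enzyme, ranged from 1315 in ROI 25 to 2139 in ROI 17, with a median of 1712. The levels of both lists correlated at r = 0.85 (0.78 without ROI 19), with 1 shared gene, and glycolysis with the interferon list at r = 0.77, rho = 0.57 and 0.40 without the 2 ROIs farthest from the glycolysis median. No ER chaperone gene of 23 was variable.

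Proliferation genes followed the signal over background. Mki67, the antigen Ki-67, ranged from 119.8 in ROI 19 to 276 in ROI 21, with a median of 189. Of 30 list members 5 were variable, against 9.47% of all targets above background. The list level had r = 0.98 with the gap and the ribosomal protein list r = 0.90. After a linear fit on the gap was taken off, the mean pairwise r of the proliferation list fell from 0.60 to 0.052, its SD from 0.25 to 0.052, and its r with the ribosome list from 0.87 to -0.079. The ribosome list kept a mean pairwise r of 0.52 after the same fit, from 0.83, with an SD of 0.088 in place of 0.20. Spread in the proliferation list cannot be told apart from spread in signal over background. The gap is itself built from targets above background, which hold these genes.

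Seen by region, each ROI had its own mixture. ROI 16 combined high Saa3, Mgp, Igkc and T and NK cell genes with low Acta2 and low sterol genes. ROI 18 had the highest hepatocyte level and the lowest contractile, matrix, basement membrane and endothelial levels. ROI 19 led in interferon genes, Gzmb and Ccl11, and ROI 21 in endothelial, proliferation and sterol genes. ROI 20 was lowest for the T and NK cell, inflammatory CAF and interferon lists, ROI 23 highest for Igha and MHC class II, and ROI 28 highest for macrophage, contractile and matrix lists. Over the 300 most variable targets, ROIs 20 and 21 were the most alike pair of regions (r across targets = 0.57) and ROIs 16 and 21 the least (-0.56). Targets are not independent of each other, and deviations from a common mean lean to negative correlations. ROI 26, left out of these measures, had deposited values of 549 for Acta2, 789 for Cxcl10, 14.1 for Alb and 98.6 for Saa3, inside the span of the other 12, and the Alb value was a single read. Over all 1056 variable targets, ROI 26 lay below that span for 110 and above it for 188.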

How the data were processed

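GeoMx Digital Spatial Profiler data of CAF segments were taken from 13 CMTM6-knockdown ROIs. The authors sequenced the probe tags on an Illumina instrument, processed them in the GeoMx DSP Analysis Suite and deposited 1 sheet of scaled signal values per target and ROI. Neither the kind of scaling nor a software version is stated there. Nearly all values (99.98% per ROI) were multiples of 1 step to within 0.001 reads, and reads recovered in this way served only for depth (406002 to 2776820 in 12 ROIs, 76346 in ROI 26) and counting error. Intervals and counting errors cover counting only, since duplicates are unknown.

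From the deposited signal, log2(value + 1) minus the ROI median was computed. The SD over 12 ROIs was divided by a running median over the targets nearest in mean. List levels are means over members above background. Groups were named by the ROIs' labels, and ROI number minus 15 is the replicate number. Named genes were the 20 highest and 5 lowest ratios, the 4 highest of each list, the 5 leaders of each group and 5 markers, and Isg15, C1qa, Tigit, Robo4 and other genes given only by a ratio, a range or a name were chosen after their values were seen. A few genes that these rules name are not reported here. The members and lists were chosen with earlier results of these data known. The ratio was tested on simulated reads. Promoters came from RefSeq tables on GRCm38.p6, and Cd74, Ciita, H2-Ab1, Tagln, Actg2 and Myh11 had none there. Alternatives were other pseudocounts, centrings, trends and filters, ROI 26 kept, a fit on depth or on the gap, and each ROI left out. Work was done in Python 3.11.15 with NumPy 2.4.6, pandas 2.3.3 and SciPy 1.17.1.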

Additional observations from a re-analysis of the deposited data

How the results depend on the processing

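The count of variable targets was 1036 to 1176 with each ROI left out and 989 to 1504 under the other settings, highest with the median absolute deviation. Of the 20 highest ratios, 15 to 20 stayed among the 20 highest with each ROI left out and 12 with the median absolute deviation. The number of co-varying groups was 6 to 12 with each ROI left out, and membership depended on single regions: 24 of 71 targets still clustered with Cxcl10 without ROI 19, none with Acta2 or Hmgcs1 without ROI 16, 3 of 28 with Apoe without ROI 28, 8 of 25 with Esm1 without ROI 21 and none of 29 with Yipf2 without ROI 25. The hepatocyte group kept 14 to 19 of its 19 targets with each ROI left out. A linear fit on log2 reads left none of 21 with Acta2, 61 of 71 with Cxcl10 and 10 of 12 with Hmgcs1. The fit on the gap, chosen after seeing the data, left 46 of 71 with Cxcl10.

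The share of variance on the first component was 22.6% to 27.9% with each ROI left out and 53.0% with ROI 26 kept. With ROI 26 kept, r was -0.45 for contractile against T and NK cell, -0.40 for contractile against interferon and 0.95 for hypoxia against glycolysis. The contractile against T and NK cell value was -0.68, -0.69 and -0.67 with the 75th percentile, the median above background or the log2 total subtracted, and -0.73 after the fit on the gap. Proliferation against ribosome gave 0.69, 0.73 and 0.67 under the same 3 centrings, 0.95 after the fit on reads, 0.92 as Spearman's rho, and -0.079, a reversed sign, after the fit on the gap. Without a filter on low values MHC class II against T and NK cell was 0.67 and endothelial against basement membrane 0.73. As Spearman's rho, interferon against glycolysis was 0.57. The SD of a list level moved by over 1.5 times in these cases. Without a filter on low values it was 0.20 in place of 0.98 for red cell, 0.36 in place of 0.98 for B and plasma cell and 0.17 in place of 0.32 for neutrophil genes. With ROI 26 kept it was 0.19 in place of 0.12 for epithelial, 0.23 in place of 0.15 for quiescent stellate cell, 0.20 in place of 0.11 for hypoxia and 0.25 in place of 0.15 for glycolysis genes. With the log2 total subtracted it was 0.16 for proliferation, 0.088 for ER chaperone (from 0.16) and 0.12 for ribosome genes, the last 0.13 with the 75th percentile. The fit on the gap gave 0.052 for proliferation and 0.088 for ribosome genes. The causes were not tested. Depth limits genes near background most: in ROI 25 a single read is worth 2.22, close to the values of low targets there.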
